A study of Mus musculus with 4 samples.

Results

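The genes described here encode 10 proteins of the cardiac sarcomere: Myh6, Myh7, Myl2, Myl3 and Mybpc3 of the thick filament, and Actc1, Tpm1, Tnnt2, Tnni3 and Tnnc1 of the thin filament. They were chosen by name, as the rows whose Ensembl identifier maps to these symbols, and make up 10 of the 55401 genes counted. RNA was sequenced from 4 mouse libraries, 1 each from the heart and the kidney of a CLP group and of a CLP + MLT group. All groups were C57BL/6 mice that underwent cecal ligation puncture (CLP), which lets gut bacteria leak into the abdomen and causes sepsis. No library is therefore free of sepsis, and none of the 4 is from sham mice. For the kidneys, the study describes male mice aged 8 weeks that drank water with melatonin (MLT) at 25 μg/ml for 14 days before CLP in the CLP + MLT group, with kidneys taken 24 h after surgery. It does not describe the hearts, whose dose, time, sex and age are therefore not known here, and the sources do not say whether a library holds 1 mouse or a pool. A number in the label of the melatonin libraries is not explained.

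The sarcomere is the contractile unit of striated muscle. Myosin heads on the thick filament pull on actin in the thin filament, and the troponin complex on tropomyosin gives calcium control over that pull. Troponin C binds calcium, troponin I holds the filament off at rest and troponin T ties the complex to tropomyosin. The myosin heavy chain exists in an α form (Myh6), the main form of the adult mouse ventricle, and a β form (Myh7), which is abundant in the fetal ventricle and in slow skeletal muscle. A higher share of Myh7 is a widely used sign of cardiac stress in rodents, though cardiac stress itself was not measured here. The Myh7 share given below is not read as such a sign. Myh7 was higher in the CLP + MLT heart, while Nppa (2287 and 1009 counts) and Acta1 (809 and 294 counts) were lower.

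On mm10, the genes lie on several chromosomes, and the counts are of reads in their annotated exons. The heavy chain genes are neighbours on chromosome 14: Myh6 (ENSMUSG00000040752.16, chr14:54941921-54966927, minus strand) and Myh7 (ENSMUSG00000053093.16, chr14:54970684-54994626, minus strand). The other thick filament genes are Myl2 (ENSMUSG00000013936.12, chr5:122100951-122113472, plus strand), Myl3 (ENSMUSG00000059741.13, chr9:110741861-110769798, plus strand) and Mybpc3 (ENSMUSG00000002100.15, chr2:91118144-91136516, plus strand). The troponin genes are Tnnt2 (ENSMUSG00000026414.13, chr1:135836354-135852260, plus strand), Tnni3 (ENSMUSG00000035458.15, chr7:4518305-4524229, minus strand) and Tnnc1 (ENSMUSG00000091898.8, chr14:31208312-31211729, plus strand). The remaining thin filament genes are Actc1 (ENSMUSG00000068614.7, chr2:114047282-114053548, minus strand) and Tpm1 (ENSMUSG00000032366.15, chr9:67022590-67049406, minus strand).

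The myosin heavy chain genes also hold short regulatory RNAs. Their mature sequences, with bases 2 to 8 (the seed, which pairs with target RNAs) in capitals, show that the host genes compared below carry related miRNAs. The sequences and positions are those of RefSeq on GRCm38.p6.
mmu-miR-208a-3p: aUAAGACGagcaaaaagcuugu
mmu-miR-208b-3p: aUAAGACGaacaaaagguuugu
mmu-miR-499-5p: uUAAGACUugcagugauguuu
The first lies inside Myh6 at chr14:54949072-54949093, the next inside Myh7 at chr14:54975710-54975731, both on the minus strand and in no annotated exon of the host, and the last lies inside Myh7b at chr2:155622893-155622913 on the plus strand. The 208a and 208b forms share the seed UAAGACG, and the 499 form has UAAGACU. These libraries of poly-A RNA do not measure mature miRNAs. The gene row of Mir208b held 292 counts in the CLP heart and 360 in the CLP + MLT heart, that of Mir208a held 2 and 10, and that of Mir499 held 0 in both.

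Upstream sequence is given for some members as the 220 bases before a RefSeq start on GRCm38.p6, read in the direction of the gene. Tnnc1 had the lowest heart ratio, Myh7 the highest, and Mybpc3 the ratio nearest to no difference. Tnnt2 was the most abundant member per transcript length in the hearts. Capitals mark motifs found on either strand: M-CAT (CATTCC or GGAATG), a TEAD factor motif, the GATA motif (AGATAA or TTATCT) and MEF2 (a 10-base AT-rich motif). None of these bases lies in an annotated exon.
Tnnc1, chr14:31208092-31208311, plus strand: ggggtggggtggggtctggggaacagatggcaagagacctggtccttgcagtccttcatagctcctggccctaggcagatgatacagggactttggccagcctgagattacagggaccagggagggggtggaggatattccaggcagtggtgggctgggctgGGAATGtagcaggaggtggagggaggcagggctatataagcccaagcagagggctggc
Myh7, chr14:54994627-54994846, minus strand: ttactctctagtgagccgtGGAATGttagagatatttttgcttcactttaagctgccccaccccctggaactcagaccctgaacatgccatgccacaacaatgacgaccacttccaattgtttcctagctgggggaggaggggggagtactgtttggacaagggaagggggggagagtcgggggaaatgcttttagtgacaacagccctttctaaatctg
Tnnt2, chr1:135836114-135836333, plus strand: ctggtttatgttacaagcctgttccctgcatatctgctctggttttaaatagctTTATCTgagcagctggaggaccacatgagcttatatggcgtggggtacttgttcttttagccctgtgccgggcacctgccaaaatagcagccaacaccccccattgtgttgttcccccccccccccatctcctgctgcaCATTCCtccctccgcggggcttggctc
Mybpc3, chr2:91117924-91118143, plus strand: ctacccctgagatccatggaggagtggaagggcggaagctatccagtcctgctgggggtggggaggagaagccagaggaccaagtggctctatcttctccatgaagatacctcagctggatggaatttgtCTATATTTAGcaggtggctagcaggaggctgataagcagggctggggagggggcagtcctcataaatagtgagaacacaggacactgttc
RefSeq gives 13 promoter entries for the 10 members. Myh7, Myl2 and Tnnt2 have a pair of starts each, and the windows shown for Myh7 and Tnnt2 are those with a match. Within 250 bases before a start, 6 of the 13 entries held an M-CAT match (1 each of Myh6, Myh7, Myl3, Tpm1, Tnnt2 and Tnnc1), against 12.6% of all 32851 RefSeq promoters. The 6 genes include genes that were higher and genes that were lower with melatonin. A match of the CArG box, the motif of serum response factor, was present in 1 entry each of Myl3 and Actc1 (1.47% of all promoters), a GATA match in 1 each of Myl2 and Tnnt2 (9.99%), an MEF2 match in Mybpc3 (2.92%), and TATAAA, read on the gene's strand, in 0 entries (7.59%). Both RefSeq starts of Myl2 (chr5:122092724 and chr5:122093189) lie before the annotated start of the counted gene (chr5:122100951). Of the 220 bases before the Tpm1 start, 193 lie in annotated exons. A match describes the letters of its window and is not a measured binding site.

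The heart libraries held 16623050 counts on genes in the CLP group and 15883057 in the CLP + MLT group, and the kidney libraries 22927905 and 16474248. Reads on no annotated gene made up 52.1% to 52.6% of those placed on a gene or on none. Mitochondrial genes took 31.6% of gene counts in the CLP heart and 36.0% in the CLP + MLT heart, and 14.8% and 24.2% in the kidneys. The heart libraries held all 20 markers of cardiomyocytes outside the sarcomere, such as the calcium release channel gene Ryr2 and phospholamban (Pln), and the kidney libraries held all 12 kidney markers. In both hearts the atrial genes Sln and Bmp10 were at 0 counts. Each group has 1 library, so the spread between mice is unknown, no difference here has a replicate check and no p-value is given. The 95% intervals are exact Clopper-Pearson intervals for counting error only. They treat each read as independent, so they are too narrow where reads are PCR copies of the same molecule.

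In the heart, all 10 genes were among the most abundant transcripts. In TPM (the share of transcripts in a library, scaled to a fixed total), which divides counts by transcript length so that genes can be compared, Tnnt2 was at 8227 TPM in the CLP heart and 6492 TPM in the CLP + MLT heart. Myl2 was at 8088 and 3633 TPM and Tnni3 at 7614 and 3559 TPM. These 3 genes, for troponin T, the ventricular regulatory light chain and troponin I, ranked in that order in both hearts. Myh6 followed at 3121 and 2677 TPM, Myl3 (the ventricular essential light chain) at 2836 and 1161 TPM and Tnnc1 (troponin C) at 2506 and 882 TPM. Tpm1 (α-tropomyosin) was at 1380 and 660 TPM, and Mybpc3 (cardiac myosin-binding protein C, which bridges the filaments) at 493 and 601 TPM. Thus the order of the 8 most abundant members by TPM was the same in the CLP and the CLP + MLT heart. This order rests on the length used. For Tnnt2 it was 1200 bases, while the union of its annotated exons is 7752 bases. In counts, Myh6 was above Tnnt2 in both hearts (208975 against 108140 in CLP, 158174 against 75298 in CLP + MLT). The lowest places changed hands: Actc1, cardiac α-actin, went from 247 to 385 TPM and Myh7 from 218 to 472 TPM, which moved Myh7 from rank 10 to rank 9. Among all genes, the members ranked between 19 and 315 in the CLP heart and between 20 and 138 in the CLP + MLT heart.

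**Figure D1:**
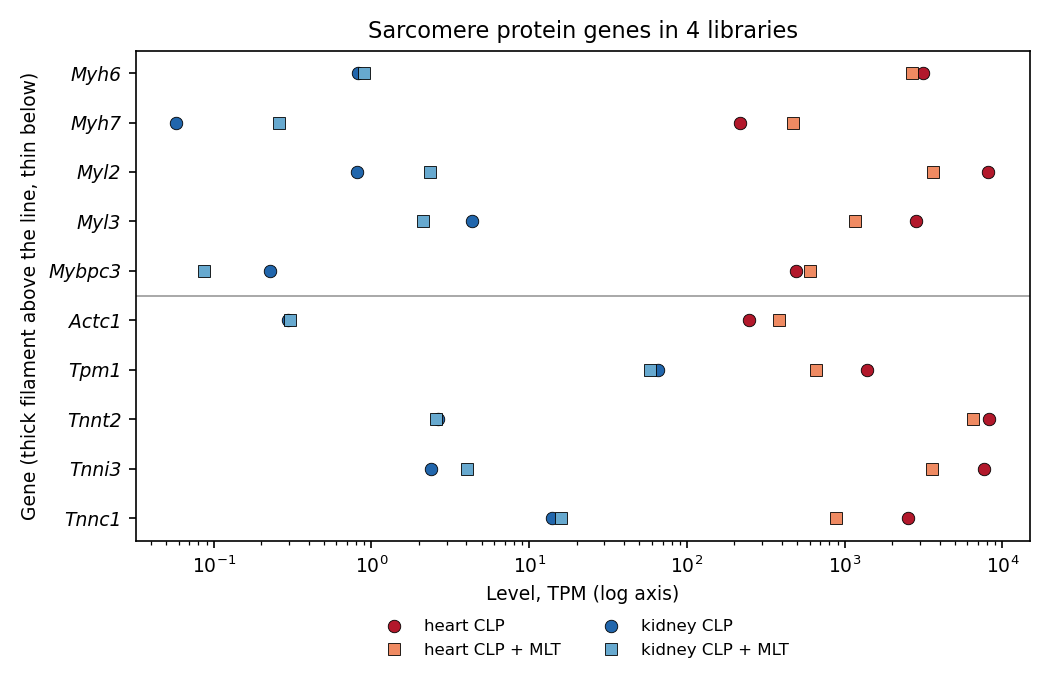
Level of each of the 10 genes in each library in TPM on a log axis, with 1 point per library and gene, and thick filament genes above the line. Circles are CLP and squares CLP + MLT, red for heart and blue for kidney. The heart points lie between 218 and 8227 TPM, and in the kidneys Tpm1 stands highest at 65.8 and 58.5 TPM.

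The comparison of CLP + MLT with CLP asked how the sarcomere transcripts of the septic heart differed with melatonin. They did not move as a block. Of the 10 genes, 5 were lower by at least 1.5-fold in the CLP + MLT heart, 1 was higher by that much and 4 lay within 1.5-fold. In the background of 15871 heart genes that averaged 10 counts or more, 12.6% were lower by at least 1.5-fold and 10.9% higher. All 5 lower genes were also past 2-fold, as were 5.22% of all genes, and 0 members were higher by 2-fold, against 4.6%. The whole counting interval lay beyond 1.5-fold for the same 5 genes (4.45% of all genes) and for Myh7 (2.89%). Each member had at least 3989 counts in each heart and an interval at most 0.12 log2 units wide. The background reaches down to a mean of 10 counts, where intervals are wider and pass less often. The shares by interval are therefore not like for like. The median log2 ratio (CLP + MLT over CLP, on normalised CPM, the count scaled to library size) was -0.87 over the members and 0.00 over all genes. The ratios spanned 2.62 log2 units, a 6.15-fold gap between the highest and the lowest, and 31 of the 45 pairs of members differed from each other in their ratio by at least 1.5-fold. The 45 pairs come from 10 ratios and are not independent, and pairs of all heart genes were not counted. In bulk tissue, fewer cells of a type and less RNA per cell cannot be told apart.

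Of the thick filament genes, both light chains were lower. Myl2 was at 4830 normalised CPM in the CLP heart and 1928 in the CLP + MLT heart, a log2 ratio of -1.33 (interval -1.34 to -1.31). Myl3 was at 1785 and 649 normalised CPM, a log2 ratio of -1.46 (-1.49 to -1.43). The light chains in the CLP + MLT heart were thus at 39.9% and 36.4% of their CLP level. The heavy chains did not follow them. Myh6 was at 12817 and 9768 normalised CPM (log2 ratio -0.39, -0.40 to -0.38), while Myh7 was at 913 and 1755 (0.94, 0.91 to 0.97), or 1.92-fold higher in the CLP + MLT heart. Mybpc3 was close to level at 1379 and 1494 normalised CPM (0.12, 0.09 to 0.14).

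Of the thin filament genes, those of the 3 troponin subunits had ratios below 0, by unequal amounts. Tnnc1, the calcium sensor, had the lowest ratio of all members, with 1214 normalised CPM in the CLP heart and 379 in the CLP + MLT heart (log2 ratio -1.68, -1.72 to -1.64). Tnni3, the inhibitory subunit, was at 4665 and 1937 normalised CPM (-1.27, -1.29 to -1.25). Tnnt2, the tropomyosin-binding subunit, was at 6633 and 4650 (-0.51, -0.53 to -0.50), within 1.5-fold. The tropomyosin gene Tpm1, at 2680 and 1138 normalised CPM, was nearer to Tnni3 than to Tnnt2 (-1.24, -1.26 to -1.21). Actc1 was higher, at 245 and 339 normalised CPM (0.47, 0.41 to 0.53), though within 1.5-fold. Across filaments, the median log2 ratio was -0.39 for the 5 thick filament genes and -1.24 for the 5 thin filament genes, and each group held genes on both sides of 0.

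**Figure D2:**
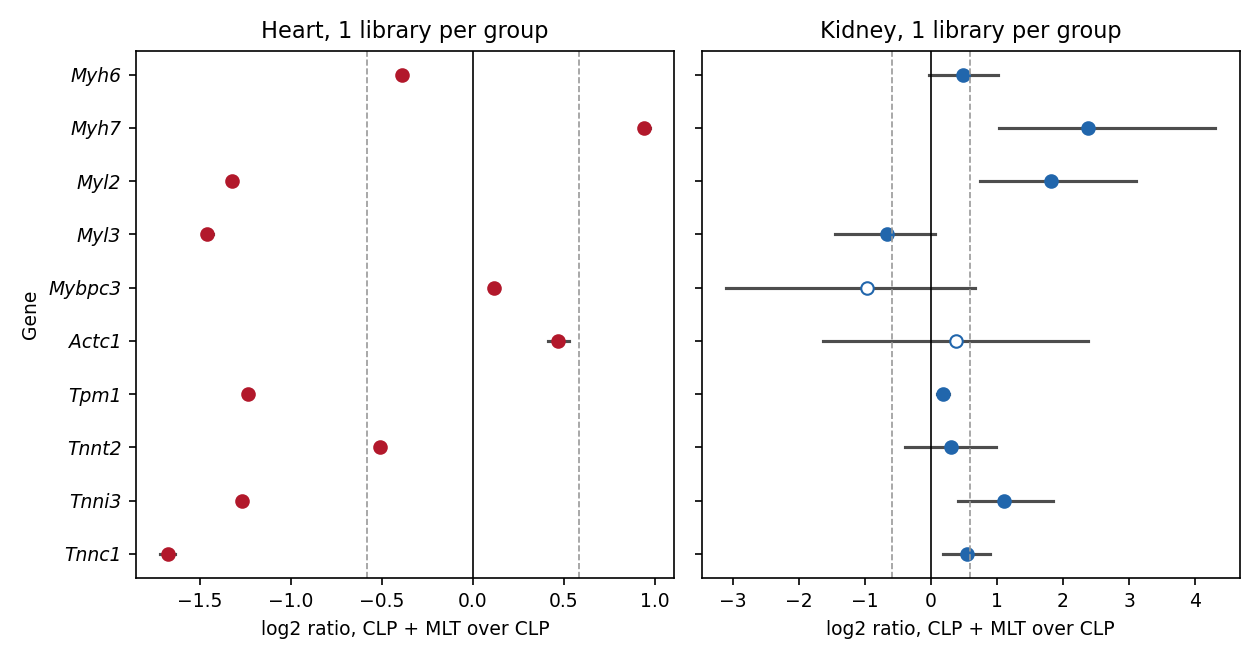
Log2 ratio of CLP + MLT over CLP for each gene in heart (left) and kidney (right), as points with 95% counting intervals as bars, where the bars can be narrower than the points. Dashed lines mark 1.5-fold and open points mark genes under the count filter. In heart 5 genes lie left of the lower line and Myh7 right of the upper one, and the kidney intervals are wide for genes of few counts.

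The heart ratios of the members went with the length of their transcripts. The shortest member, Tnnc1 (721 bases in its longest protein-coding transcript), had the lowest ratio, and the longest, Myh7 (6230 bases), had the highest. Spearman's rho between transcript length and the log2 ratio was 0.855 over the 10 genes and Pearson's r on log2 length was 0.69, as a description over genes that share both libraries. With exonic length, the union of all annotated exons of a gene, rho was 0.564 and r 0.49. For transcript length in other heart genes, rho was 0.165 over 15856 tested genes, 0.390 over the 2320 genes that averaged 1000 counts or more, 0.547 over 28 titin, Z-disc and M-band genes and 0.774 over 20 cardiomyocyte genes outside the sarcomere. Among the 314 such genes with transcripts of at most 1500 bases, the median log2 ratio was -0.47, 40.8% were lower by at least 1.5-fold and 1.91% were higher. Among the 2006 with longer transcripts, the median was 0.02, 5.88% were lower and 2.14% higher.

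Read against genes of their own length class, some members stood apart and others did not. Of the 6 members with transcripts of at most 1500 bases, 4 were lower by at least 1.5-fold (Myl2, Myl3, Tnni3 and Tnnc1). Tnnt2, whose heart ratio was below 0, lay in the middle of that class, with 45.9% of its genes at a lower ratio, and Tnni3 and Myl2 had 18.2% and 15.9% below them. Tnnc1 had 2.87% below it, and Actc1 was near the top with 305 of 314 genes below it. Of the 4 longer members, Tpm1 (2890 bases) had 18 of 2006 genes below it and Myh7 had 99.6%. Myh6 had 10.5% and Mybpc3 65.6% of that class below them. With the trend of the ratio on transcript length removed, an alternative chosen after the data were seen, Tpm1 (-1.20), Myh7 (0.90), Myh6 (-0.43) and Mybpc3 (0.10) stayed near their values. Tnnc1 came to -0.996, Myl3 to -0.95, Myl2 to -0.78, Tnni3 to -0.74, Tnnt2 to -0.15 and Actc1 to 0.73. The part of length in the members' ratios was not tested further.

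**Figure D3:**
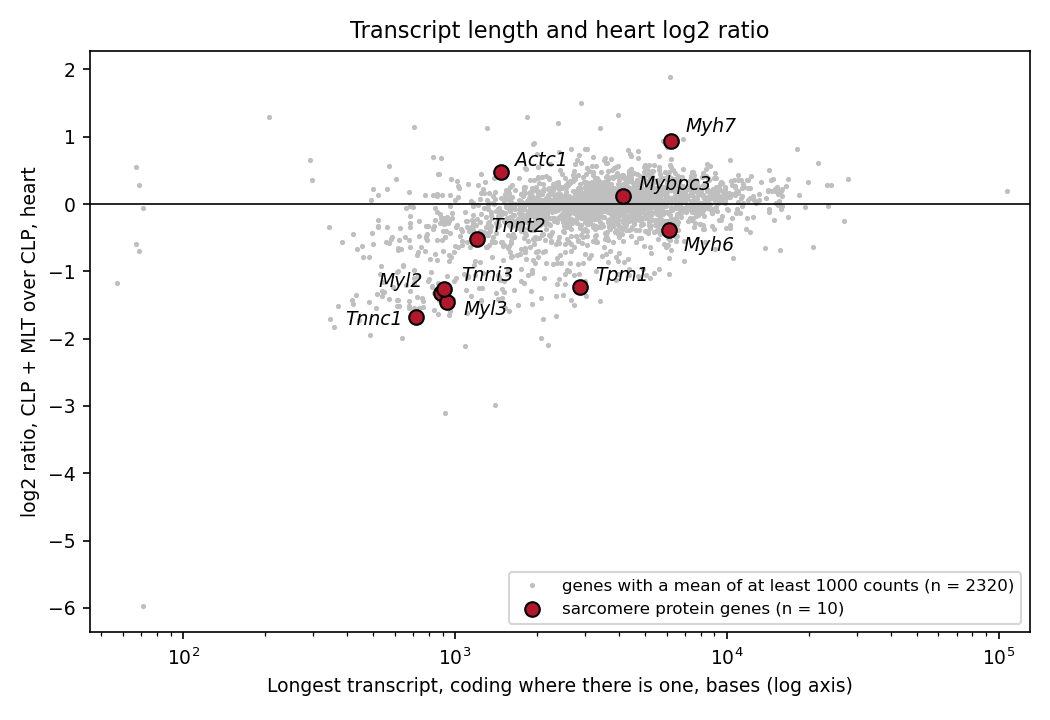
Log2 ratio of CLP + MLT over CLP in heart against transcript length in bases on a log axis, for the 2320 genes that averaged 1000 counts or more (grey) and the 10 sarcomere protein genes (red). Short transcripts lie mostly below 0, with a median of -0.47 up to 1500 bases, and Tpm1 and Myh7 lie at the lower and upper edge of the longer ones.

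Shares within a library do not depend on scaling between libraries. Myh7 made up 6.65% of the Myh6 and Myh7 counts in the CLP heart (14893 of 223868, interval 6.55 to 6.76) and 15.2% in the CLP + MLT heart (28424 of 186598, 15.1 to 15.4). The β form was thus the minor form in both hearts, with a larger share in the CLP + MLT heart. Per transcript length the shares were 6.54% and 15.0%. The related slow myosin gene Myh7b, host of miR-499, moved in the same direction, with 1929 counts in the CLP heart and 7080 in the CLP + MLT heart (log2 ratio 1.89, 1.81 to 1.96). In actin, the skeletal α form Acta1 took 16.9% of the Acta1 and Actc1 counts in the CLP heart (809 of 4798) and 5.09% in the CLP + MLT heart (294 of 5779). Tpm2 took 2.53% and 4.43% of the Tpm1 and Tpm2 counts. The slow skeletal troponin I gene Tnni1, the form of the fetal heart, had 4 counts and 1 count, and the atrial genes Myl7 and Mybphl each had 1 and 0.

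Reads of Myh6 and Myh7 are less certain than those of the other members. Of the 50-base stretches in their longest transcripts, 22.6% in Myh6 and 28.2% in Myh7 also occur in transcripts of other genes, against 2.14% in Myl2 and 0 in the other 7 members. The antisense genes Mhrt, Gm31251 and Gm29015 share 1149 exonic bases with Myh7 (13.3%), and how strand was handled in the counting is not known. They had 11156, 4846 and 963 counts in the CLP heart and 12148, 6580 and 2347 in the CLP + MLT heart. With these counts added, Myh7 had a log2 ratio of 0.65 (0.63 to 0.67), still past 1.5-fold. Myh6 shares 114 bases with the antisense gene Gm49130, which had 30993 and 15582 counts, and had a log2 ratio of -0.46 with them added.

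Together the 10 genes took 3.64% of all gene counts in the CLP heart (605890 counts, interval 3.64 to 3.65) and 2.45% in the CLP + MLT heart (389256 counts). Without mitochondrial genes in the total, the shares were 5.33% and 3.83%. Thick filament genes made up 58.5% of the members' counts in the CLP heart and 64.9% in the CLP + MLT heart. Myh6 alone supplied 34.5% and 40.6%. These shares of reads weigh long transcripts more. Per transcript length, the thick filament share was 42.5% in the CLP heart and 41.6% in the CLP + MLT heart. That of Myh6 was 8.99% and 13.0%.

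Genes for the rest of the sarcomere gave a mixed picture. Of all heart genes, 12.6% were lower by at least 1.5-fold and 10.9% higher, as the background for the counts that follow. Of 28 titin, Z-disc and M-band genes, 5 were lower by at least 1.5-fold and 0 higher, with a median log2 ratio of 0.01. The 5 were Tcap, the titin cap protein at the Z-disc (-1.66, from 38128 to 12022 counts), Des (desmin, -1.36), Actn2 (α-actinin, -1.14), Myom1 (myomesin, -0.97) and Myoz2 (-0.85). The giant protein titin (Ttn) lay slightly above 0, at 0.20, and the highest was filamin C (Flnc, 0.46). Of 22 tested genes among other isoforms of the same families, 3 were higher and 5 lower, with a median of -0.09. The higher genes were Myh7b (1.89), Actg2 (1.08, on 14 and 30 counts) and Actg1 (0.91), of which the last pair encode actins outside striated muscle. The lower genes were Acta1 (-1.45), Tnnt1 (-0.92), Myl4 (-0.86), Mybpc2 (-0.74) and Myl1 (-0.70). The fast skeletal isoforms were nearly absent, with 3 of 10 past the filter and a summed level of 10.4 and 7.41 normalised CPM.

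Of 17 tested genes that build, fold, degrade or regulate sarcomere proteins, 7 were lower by at least 1.5-fold and 0 higher. The median log2 ratio was -0.23, and 12.6% of all genes were lower and 10.9% higher. The 7 became 6 with a filter at a mean of 50 counts, 5 with the transcript length trend removed and 4 at a fold of 2. The lowest was the small heat shock protein gene Hspb7 (-1.23, from 9499 to 4012 counts), and among the others were the chaperone αB-crystallin (Cryab, -1.08) and the ubiquitin ligase genes Trim54 (-1.06), Fbxo32 (-0.84) and Trim63 (-0.63). The highest was the myosin chaperone Unc45b (0.44). Of 18 cardiac transcription factors, 1 was higher and 2 were lower, with a median of 0.04, beside 10.9% and 12.6% of all genes. By whole counting interval, or at a fold of 2, 0 were higher and 0 lower. Esrra, an estrogen-related receptor of energy metabolism, was the highest (0.60, from 2538 to 3826 counts), and Nkx2-5, a cardiac homeobox factor, the lowest (-0.80, from 204 to 116 counts). Tead1, whose product binds the M-CAT motif, was at 1534 and 1188 counts (-0.36).

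Cardiomyocyte genes outside the sarcomere were set beside the members because both come from the same cell. Of 20, 8 were lower by at least 1.5-fold and 1 was higher, with a median log2 ratio of -0.36. Of all heart genes, 12.6% were lower by that much and 10.9% higher. The lowest was Cox7a1, a muscle subunit of cytochrome c oxidase (-1.94, from 5421 to 1399 counts), and myoglobin (Mb) was at -1.63. The summed level of the 20 genes went from 17628 to 9850 normalised CPM, while that of the members went from 37161 to 24038. The atrial natriuretic peptide gene Nppa was at 2287 and 1009 counts (-1.17), and the atrial light chain Myl4 at 70 and 38.

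Markers of other cells were summed in the same way in the hearts. Genes are counted as higher or lower at 1.5-fold, beside 10.9% of all heart genes higher and 12.6% lower. The summed level of 10 endothelial genes was 3189 and 3479 normalised CPM, with 1 gene higher (Kdr, 0.91) and 1 lower (Cldn5, -0.75). The 10 fibroblast genes summed to 537 and 429 with 1 gene lower (Col1a1, -0.92) and Lum (0.43) the highest of those that averaged 100 counts or more, called well-counted here, and the 8 smooth muscle and pericyte genes to 1718 and 1023, where desmin, which cardiomyocytes also make, was the gene that was lower and Notch3 (0.33) the highest. The 10 macrophage and monocyte genes summed to 258 and 301, with 3 higher (the highest Adgre1, 1.56) and 3 lower (the lowest among well-counted genes Mrc1, -0.88). The 9 neutrophil genes summed to 57.1 and 41.9, with 1 higher and 3 lower of the 7 tested, and its well-counted genes ranged from S100a9 (-0.80) to Csf3r (-0.09). The 5 red blood cell genes summed to 257 and 224, from Hbb-bs (-0.35) to Hbb-bt (0.51). Kidney markers were present in both hearts, at a higher level in the CLP + MLT heart. They summed to 409 normalised CPM in the CLP heart and 857 in the CLP + MLT heart, with 7 of 11 tested genes higher by at least 1.5-fold and 0 lower, and the well-counted genes ranged from Umod (0.04) to Slc12a1 (1.59). In the kidneys the same list summed to 26942 and 38810. The part of these markers in the members' heart ratios was not tested.

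**Figure D4:**
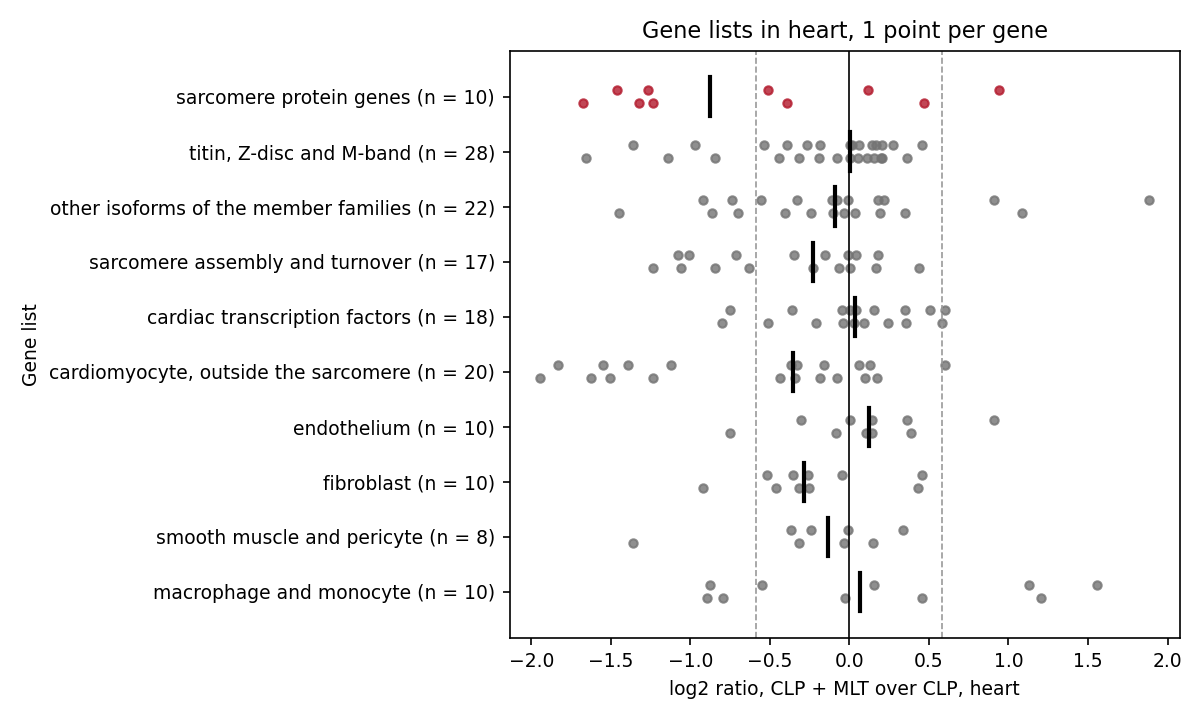
Log2 ratio of CLP + MLT over CLP in heart for each gene of 10 lists, 1 point per gene past the count filter, with the median of each list as a black bar and dashed lines at 1.5-fold. The sarcomere protein genes have a median of -0.87 and the cardiomyocyte genes outside the sarcomere -0.36, and the other medians lie between -0.29 and 0.12.

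The genes whose pattern over the 4 libraries lay nearest to the median pattern of the members were Gm49130, Mhrt, Art1, Ttn and Tcap. Likeness was measured as the Euclidean distance between log2 CPM profiles, each centred on its own mean, among 10333 genes that averaged 100 counts or more in heart. The distances were 0.43, 0.45, 0.55, 0.69 and 0.84 log2 units, against a median of 1.43 for the members themselves. In the same order, the heart log2 ratios of CLP + MLT over CLP were -0.98, 0.13, -0.33, 0.20 and -1.66. The members' median was -0.87. A near pattern over the 4 libraries, which span heart and kidney, is thus not a like difference between the hearts. The first pair are antisense to the heavy chain genes, as described above.

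In the kidney the sarcomere genes had few counts, apart from Tpm1, which is made in many cell types, and to a lesser degree Tnnc1. Tpm1 had 2630 counts in the CLP kidney and 1875 in the CLP + MLT kidney. The other members had 5 to 139 counts in the CLP kidney and 4 to 127 in the CLP + MLT kidney. Mybpc3 (13 and 4 counts) and Actc1 (6 and 5) did not reach a mean of 10 counts. Tnnc1 was the next highest after Tpm1, at 13.9 and 15.9 TPM. All 10 together took 0.0131% and 0.0134% of gene counts in the kidney, and Tpm1 supplied 87.6% and 84.8% of that.

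Of the 8 members past the count filter in kidney, 3 were higher by at least 1.5-fold in the CLP + MLT kidney, 1 was lower and 4 lay within 1.5-fold. In the background of 16932 kidney genes, 11% were higher and 11.6% lower. The higher genes rested on few counts. Myh7 had 5 and 18 counts (log2 ratio 2.38, interval 1.04 to 4.30), Myl2 had 10 and 23 (1.81, 0.75 to 3.11) and Tnni3 had 30 and 41 (1.11, 0.41 to 1.85). The interval of Tnni3 reaches below 1.5-fold. Myl3 had 56 and 22 counts (-0.67, -1.46 to 0.06), and shares 95 exonic bases with Pth1r on the other strand, a parathyroid hormone receptor gene with 10575 and 6533 counts in the kidneys. Tnnc1 (0.54, 0.18 to 0.90), Myh6 (0.49, -0.03 to 1.01), Tnnt2 (0.30, -0.39 to 0.98) and Tpm1 (0.18, 0.10 to 0.27) lay within 1.5-fold. The median of the 8 genes was 0.52. Of the cardiomyocyte genes outside the sarcomere, 12 of 20 passed the filter in kidney, with 2 higher (Ryr2 from 14 to 35 counts and Mb from 20 to 33) and 2 lower (Cox6a2 from 34 to 10 and Kcnj2 from 92 to 34).

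Heart exceeded kidney in CPM for all 10 genes in both groups. In the CLP libraries 9 of the 10 were at least 100-fold higher in heart, against 1.42% of 17419 genes, and in the CLP + MLT libraries 8 of the 10, against 1.49% of 16729. Myl2 showed the largest gap among the members in the CLP libraries (10268-fold) and Mybpc3 in the CLP + MLT libraries (5567-fold, on 4 kidney counts). Tpm1 was 22.9-fold higher in the CLP heart and 10.2-fold in the CLP + MLT heart, and Tnnc1 196-fold and 49.98-fold. Leaving out Tpm1 and Tnnc1, the kidney level was 0.0092% to 0.139% of the heart level in the CLP libraries and 0.0159% to 0.202% in the CLP + MLT libraries.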

How the data were processed

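RNA was measured in 4 poly-A libraries, heart and kidney of CLP and CLP + MLT mice. After trimming with trim-galore and alignment to mm10 with HISAT2 2.1.0, the authors deposited raw counts per gene made with HTSeq (per the labels). For HTSeq, the version, the annotation and how strand was handled were not given in the sources used here. The 5 rows per file that name no gene were left out of library sizes. These rows held 65.5% to 72.8% of all reads, and 23.6% to 38.6% of all reads were not placed uniquely. Of 55401 identifiers, 55141 had a symbol.

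From the deposited counts, TMM factors were computed within each tissue with edgeR 4.0.16 (R 4.3.3), and DESeq2 1.42.0 size factors were an alternative. Log2 ratios used a prior count of 0.5. Genes averaging 10 counts or more in a tissue were kept, and a gene was called past a fold of 1.5, without the study's edgeR p-value, since 1 library per group gives no dispersion. Heart over kidney used CPM without TMM. TPM used the longest protein-coding transcript of the GENCODE annotation. Intervals are 95% exact intervals on counts, computed in Python 3.11.15 with scipy 1.17.1. The procedure was tested on simulated counts with known folds and counting error only, so the test does not cover the spread between mice.

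The members and lists were chosen with earlier results of these data known. By rule the text names the 10 members, the highest and lowest gene of each list with a mean of at least 100 counts, isoform partners and the 5 nearest profiles, apart from the genes not reported. Other genes were named after their values were seen, and the values of 2 genes of the lists are not reported here. Alternatives were other scalings, filters, prior counts, folds and the removal of trends on length or GC content.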

Additional observations from a re-analysis of the deposited data

Results flagged for a closer look

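Among the 8 members past the count filter in both tissues, 4 moved in opposite directions in heart and kidney, with counting intervals that exclude 0 in each. The share of all genes that did the same was not counted, so whether 4 is unusual is not known. Myl2 had a log2 ratio of -1.33 in heart and 1.81 in kidney. Tnni3 was at -1.27 and 1.11, Tnnc1 at -1.68 and 0.54, and Tpm1 at -1.24 and 0.18. The difference between the tissues was not tested, since each group held 1 library. In kidney, Myl2, Tnni3 and Tnnc1 rested on 10 to 139 counts per library, and the kidney ratio of Tpm1 was -0.01 when libraries were scaled by library size only.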

How the results depend on the processing

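No paired analysis was possible because each group held 1 library, and for the same reason no replicate could be left out. In heart, the 5 lower members and Myh7 kept their direction and stayed past 1.5-fold under the planned changes of scaling, filter, prior count and trend, and Actc1 passed 1.5-fold with the exonic length trend removed (0.59). No member changed sign in heart. Of 102 alternative values of single members in heart, 44 moved beyond their counting interval, as did 1 of 67 in kidney and 5 of 20 for heart over kidney. Of 336 list counts, 46 moved by over 1.5 times. In kidney, scaling by library size only moved the median of all genes to -0.19 and turned Tpm1 from 0.18 to -0.01. The members' median heart ratio of -0.87 was -0.82 with library size only, -0.83 with upper quartile scaling, -0.85 with the GC trend removed and -0.58 with the transcript length trend removed. The count of 1 higher member became 2 with either length trend removed and 0 at a fold of 2. Of all heart genes, 1997 were lower and 1726 higher. These became 5400 and 5063 with no filter, 1128 and 750 at a mean of 50 counts, 1308 and 2623 with the transcript length trend removed, 829 and 730 at a fold of 2, and 707 and 459 with the whole interval beyond 1.5-fold. Of all kidney genes, 1971 were lower and 1863 higher. These became 3172 and 1149 with library size only, 6051 and 4649 with no filter, 1016 and 999 at a mean of 50 counts, 830 and 699 at a fold of 2, and 576 and 604 by interval. The higher share of calls went from 46.4% to 66.7% in heart with the transcript length trend removed and from 48.6% to 26.6% in kidney with library size only. Per exonic length, Myh7 took 5.27% and 12.3% of the heavy chain counts in the CLP and CLP + MLT heart. Of nuclear counts the members took 5.33% and 3.83%. The cause of these changes was not tested. Few counts limit every kidney value of a member other than Tpm1.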

Other observations

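Myl7, the atrial regulatory light chain, had more counts in the kidneys than in the hearts. It had 54 counts in the CLP kidney and 30 in the CLP + MLT kidney, against 1 and 0 in the hearts, where a count of 0 allows up to 3. Of the Myl7 and Myl2 counts, Myl7 made up 84.4% (interval 73.1 to 92.2) and 56.6% (42.3 to 70.2) in the kidneys. The slow skeletal troponin T gene Tnnt1 had 4 counts in the CLP kidney and 18 in the CLP + MLT kidney, and 189 and 99 in the hearts. Actg1, a cytoplasmic actin, was at 3032 counts in the CLP heart and 5661 in the CLP + MLT heart (log2 ratio 0.91), while Actb, the other cytoplasmic actin, was at 10119 and 11481 (0.19).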
